A study of Mus musculus with 6 samples.

Results

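The cells described here are T cells by Cd3e, a signalling chain of the T cell receptor complex, that also held RNA of macrophage genes. They were taken from 6 droplet libraries of CD4+ T cells sorted from C57/B6 mice with an abdominal aortic aneurysm induced by elastase (treatment label PPE), 3 libraries from vascular tissue and 3 from spleen. Mice were 8 to 12 weeks old at induction and tissue was taken 14 days after surgery. All mice of both groups had been treated, so the spleen is the other tissue and not an untreated control, and untreated aorta was not analysed here. The aorta was minced and kept in dissociation enzymes at 37 °C for 1 h, whereas the spleen was ground with no enzyme step named, so tissue and digestion cannot be told apart. Nothing in the labels ties a replicate to an animal of its own, so the p-values below reflect variation among libraries that could be technical alone.

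A carrier was a cell with at least 300 genes, at most 10% mitochondrial UMIs (unique molecular identifiers, each counting 1 captured RNA molecule), at least 1 Cd3e UMI, no UMI of the B cell gene Cd79a or of the plasmacytoid dendritic cell gene Siglech, and a UMI of at least 2 of C1qa, C1qb, C1qc, Apoe, Lyz2 and H2-Aa. This rule found 1871 carriers, 1072 vascular and 799 splenic, among 37823 Cd3e cells and 41303 cells kept (4.95% of the Cd3e cells). Vascular libraries 1, 2 and 3 held 490, 257 and 325 carriers, and spleen libraries 1, 2 and 3 held 99, 335 and 365. These cells were chosen by their UMIs of Cd3e and the 6 genes, whose levels are therefore given as a description with no test. The 6 libraries held 240821626 UMIs, with medians of 4423 to 5724 UMIs per barcode. Of the 41315 barcodes, 932 were seen in more than 1 library, and the share of cells with such a barcode was 4.38% of carriers and 4.51% of Cd3e cells with none of the 6 genes.

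C1qa, C1qb and C1qc encode the chains of complement C1q, which in mice is made mainly by macrophages and binds dying cells and immune complexes. Apoe encodes a lipid carrier made by macrophages among other cells, Lyz2 the lysozyme of macrophages, monocytes and neutrophils, and H2-Aa a chain of MHC class II, which presents peptides to CD4+ T cells. Macrophages of the splenic red pulp take up old red blood cells and recycle their iron, and the artery wall holds resident macrophages that monocytes add to when the wall is injured. T cells touch such cells while they search for antigen, and a droplet can hold both cells, a fragment of one, or RNA free in the suspension.

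The 3 C1q genes lie side by side on chromosome 4 (GRCm38), within 18675 bases, and are read from the minus strand, C1qa at chr4:136895917-136898803, C1qb at chr4:136880129-136886187 and C1qc at chr4:136889804-136893065. Lyz2 lies on chromosome 10 at chr10:117277331-117282321, also on the minus strand, beside its near-identical copy Lyz1, so reads may have been split between the pair and Lyz2 counts are uncertain. The bases before the RefSeq starts (GRCm38.p6) of C1qb, C1qc and Lyz2 are shown because these genes defined the carriers and split them by tissue, up to 250 bases each and leaving out bases that GENCODE places inside the gene. Capitals mark AGGAAG or its reverse complement CTTCCT, the core bound by PU.1, the macrophage transcription factor encoded by Spi1. The C1qb stretch (chr4:136886201-136886450, minus strand) held 1 match, and 29.5% of 32851 promoter stretches of that length hold at least 1. The C1qc stretch (chr4:136893066-136893164, minus strand) held 2 matches in 99 bases, a number reached by 1.1% of stretches of that length. The Lyz2 stretch (chr10:117282322-117282522, minus strand) held 2 matches in 201 bases, as 3.9% of stretches of that length do. A match is a run of letters and not a measured binding site.
C1qb: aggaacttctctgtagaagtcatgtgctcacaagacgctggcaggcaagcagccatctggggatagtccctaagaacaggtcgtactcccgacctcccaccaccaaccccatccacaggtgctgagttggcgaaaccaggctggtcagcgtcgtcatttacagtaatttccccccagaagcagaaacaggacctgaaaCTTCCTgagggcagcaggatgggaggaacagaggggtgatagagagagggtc
C1qc: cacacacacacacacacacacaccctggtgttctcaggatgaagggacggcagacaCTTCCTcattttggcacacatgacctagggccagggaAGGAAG
Lyz2: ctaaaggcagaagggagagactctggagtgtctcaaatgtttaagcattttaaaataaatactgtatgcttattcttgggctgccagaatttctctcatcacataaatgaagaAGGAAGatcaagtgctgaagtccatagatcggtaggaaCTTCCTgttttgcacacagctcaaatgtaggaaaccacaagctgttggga

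The label was checked against T cell and macrophage markers. Carriers kept the RNA of T cells: the 14 genes of the T cell lineage list, which include Cd3e, required of carriers and of the cells they are set against, summed to 8132, 7565 and 7933 CPM (a UMI count scaled by the total UMIs of the same cells) in vascular carriers and to 6042, 6611 and 7003 CPM in spleen carriers. Cd3e cells with none of the 6 genes, called other Cd3e cells below, held 7502 to 8187 CPM of this list in vascular tissue and 6678 to 7577 CPM in spleen. None of the 13 genes besides Cd3e stood at least 2-fold higher in carriers than in other Cd3e cells in all 3 libraries of either tissue. Cd4 had a UMI in 69.4% ± 1.20 of vascular carriers and 67.5% ± 2.53 of spleen carriers, against 63.5% ± 0.781 and 56.6% ± 2.67 of the other Cd3e cells of vascular tissue and spleen (SD, n = 3 libraries, as in all shares below). The 15 pan-macrophage genes summed to 672, 819 and 562 CPM in vascular carriers and 859, 928 and 1061 CPM in spleen carriers, against 138 to 142 CPM in other vascular Cd3e cells and 102 to 113 CPM in other splenic ones. Of the 14 that passed the filter on low counts, 13 in vascular tissue and 14 in spleen stood at least 2-fold above the other Cd3e cells in all 3 libraries, where 1.87% and 3.64% of the 10990 genes did so. The rule made this contrast, as carriers were chosen for macrophage genes and the other cells for their absence. It is thus a description and no independent check of the label. The receptors that define macrophages were sparse, above all in vascular tissue. Csf1r, the growth factor receptor of macrophages, had a UMI in 2.34% ± 0.449 of vascular carriers and 22.6% ± 3.01 of spleen carriers, and Adgre1, which encodes F4/80, in 5.24% ± 1.37 and 9.40% ± 1.56 of vascular and spleen carriers. The name therefore refers to T cells with some macrophage RNA and not to macrophages.

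The share of carriers was higher in each vascular library than in any spleen library. It was 6.42%, 5.78% and 5.64% of Cd3e cells in vascular libraries 1, 2 and 3, against 4.60%, 3.84% and 4.01% in spleen libraries 1, 2 and 3, each with a 95% Wilson interval that covers counting error only, the widest being 5.13% to 6.50% in vascular library 2 and 3.79% to 5.56% in spleen library 1. The tissues did not overlap, and the means of 5.95% ± 0.416 and 4.15% ± 0.398 in vascular tissue and spleen differed by 1.80 percentage points (exact two-sided permutation p = 0.1, the smallest p that 3 against 3 libraries allow). With each cell thinned to 2000 UMIs, which left out no carrier and 16 vascular and 51 spleen Cd3e cells, the shares among cells that kept a Cd3e UMI were 2.81% ± 0.442 and 1.73% ± 0.111 in vascular tissue and spleen, and at 1000 UMIs they were 1.57% ± 0.191 and 1.15% ± 0.237 (exact p = 0.1 for both). The order turned round with the genes required: cells with at least 2 of the 3 C1q genes made up 2.08% ± 0.133 of Cd3e cells in vascular tissue and 3.15% ± 0.479 in spleen (exact p = 0.1).

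**Figure D1:**
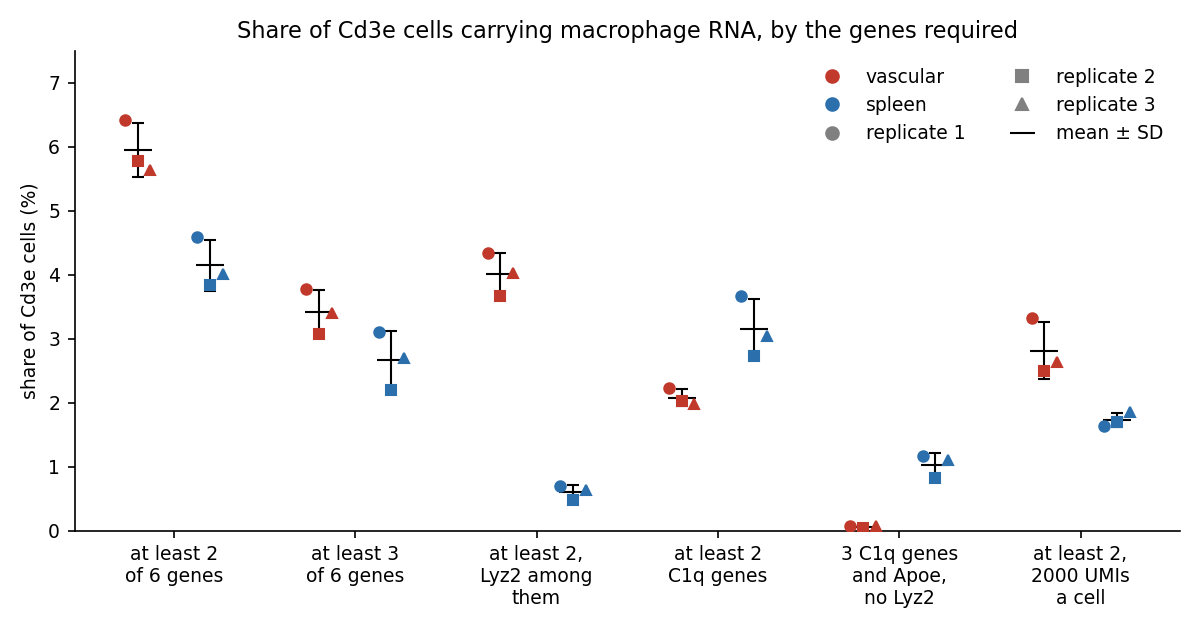
Share of Cd3e cells (%, vertical axis) that met the rule or a variant of it, in the 3 vascular (red) and 3 spleen (blue) libraries, with marker shape for the replicate number and bars for mean ± SD. Vascular libraries lie higher for the rule itself and for the carriers with Lyz2, and spleen libraries lie higher where 2 or 3 C1q genes are required.

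Just inside the rule, 451 vascular and 295 spleen carriers held exactly 2 of the 6 genes, and just outside it 1410 vascular and 776 spleen Cd3e cells held 1. Those with exactly 2 made up 41.2%, 46.7% and 39.7% of carriers in vascular libraries and 32.3%, 42.7% and 32.9% in spleen libraries, so the ranges overlapped. At the other end, 89 vascular and 19 spleen carriers held all 6 genes. The median carrier had 4 UMIs of the 6 genes together in each vascular library, and 6, 5 and 6 UMIs in spleen libraries 1, 2 and 3. Exactly 2 such UMIs, the fewest the rule admits, were all that 24.3%, 28.4% and 25.8% of carriers had in vascular libraries and 20.2%, 17.9% and 12.9% in spleen libraries.

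Which of the 6 genes the carriers held differed by tissue. Lyz2 and H2-Aa were found in larger shares of vascular carriers, and the C1q genes in larger shares of spleen carriers. Lyz2 was found in 67.6%, 63.4% and 71.4% of vascular carriers and in 15.2%, 12.5% and 15.9% of spleen carriers. H2-Aa was found in 64.9%, 60.3% and 59.4% of vascular carriers and in 32.3%, 29.0% and 33.2% of spleen carriers. C1qc was found in 31.0%, 31.1% and 32.0% of vascular carriers and in 70.7%, 69.6% and 72.9% of spleen carriers. C1qa and C1qb followed C1qc, with means of 39.3% and 51.0% of vascular carriers against 64.1% and 72.7% of spleen carriers. Among carriers, no vascular library fell within the range of spleen for these 5 genes. Shares among carriers depend on each other, since a cell that met the rule through Lyz2 and H2-Aa needed no C1q gene. In all Cd3e cells the tissues overlapped for C1qa, at 2.55% to 2.99% in vascular and 2.90% to 3.57% in spleen libraries. They also overlapped for C1qb, at 3.71% to 4.17% and 3.31% to 4.78%. C1qc, Lyz2 and H2-Aa did not overlap there, C1qc being at 2.12% to 2.49% in vascular and 3.22% to 3.76% in spleen libraries. Among carriers, Apoe did not separate the tissues, with 67.9% of vascular and 68.2% of spleen carriers. In all Cd3e cells it did, with a UMI in 5.68% to 5.99% of cells in vascular libraries and 3.10% to 4.13% in spleen libraries.

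**Figure D2:**
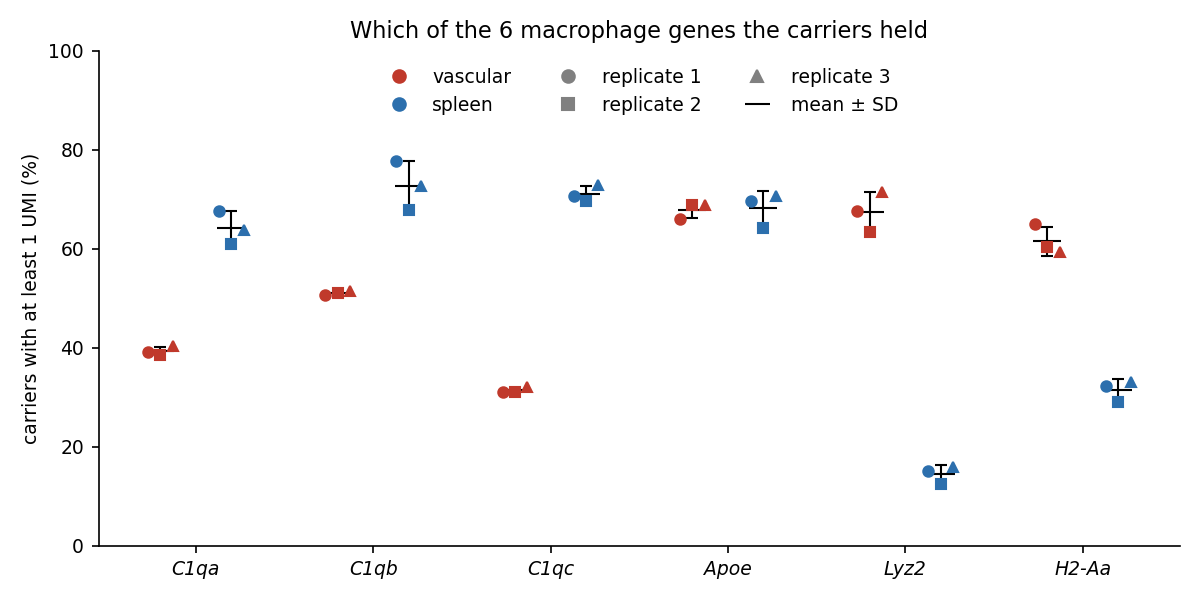
Carriers with at least 1 UMI of each of the 6 genes that chose them (%, vertical axis), in the 3 vascular (red) and 3 spleen (blue) libraries, with marker shape for the replicate number and bars for mean ± SD. The C1q genes lie higher in spleen, Lyz2 and H2-Aa lie higher in vascular tissue, and Apoe lies near 68% in both.

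The combinations held in single cells showed the same split. All 57 possible combinations of 2 or more genes occurred, 56 in vascular tissue and 49 in spleen. The 3 C1q genes with Apoe and nothing else, the most frequent in spleen, were seen in 5 vascular and 124 spleen carriers, and C1qb with C1qc alone in 7 vascular and 51 spleen carriers. Carriers with all 3 C1q genes and Apoe but no Lyz2 were 11 in vascular tissue and 197 in spleen, or 0.0600% ± 0.0131 and 1.03% ± 0.179 of Cd3e cells. Carriers with Lyz2 among their genes were 726 in vascular tissue and 115 in spleen, or 4.01% ± 0.336 and 0.605% ± 0.111 of Cd3e cells. Carriers with Lyz2 and Apoe or H2-Aa but no C1q gene were 209 in vascular tissue and 29 in spleen. These combinations were picked after their counts were seen and are given with no test.

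The level of single cells varied widely, and 1 carrier of spleen library 3 stood far above the rest. It held 607 Lyz2 and 123 Apoe UMIs among 4179 UMIs, with 1 Cd3e UMI, and supplied 56.6% of the Lyz2 UMIs of that library's carriers. Lyz2 stood at 287, 315 and 265 CPM in vascular carriers and at 79.4, 63.6 and 364 CPM in spleen carriers, where library 3 alone lay above the vascular libraries. At least 20 H2-Aa UMIs, more than the whole set of 6 gave in most carriers, were held by 7 vascular and 32 spleen carriers.

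RNA free in the suspension can place UMIs in cells that do not make them, so the shares in all Cd3e cells were set beside Siglech cells without Cd3e, which should lack C1q. In all Cd3e cells, C1qa had a UMI in 2.83% ± 0.242 in vascular tissue and 3.14% ± 0.375 in spleen, at library medians of 4274 to 4929 and 5048 to 5770 UMIs. In Siglech cells it had one in 0.439% ± 0.406 of 1135 vascular and 5.15% ± 4.26 of 157 spleen cells, at medians of 8083 to 8445 and 7264 to 8311 UMIs. The splenic Siglech cells with a C1qa UMI were 2 of 20, 3 of 88 and 1 of 49 in libraries 1, 2 and 3. C1qc had a UMI in 2.26% of vascular and 3.44% of spleen Cd3e cells against 0.334% of vascular and 4.47% of spleen Siglech cells, and C1qb in 3.86% of Cd3e cells in each tissue against 1.04% of vascular and 3.78% of spleen Siglech cells. In vascular tissue all 3 shares exceeded those of the deeper Siglech cells. In spleen they lay within the range of the 3 Siglech libraries and the order changed between libraries, so these shares alone were not shown to be above background. Lyz2 had a UMI in 5.74% ± 0.131 of vascular and 0.899% ± 0.0656 of spleen Cd3e cells, against 1.48% ± 0.242 of vascular Siglech cells. The splenic Siglech cells with a Lyz2 UMI were 3 of 20 in library 1 and 0 of 88 and 0 of 49 in libraries 2 and 3, so a splenic background for Lyz2 rests on library 1. The genes occurred together: among Cd3e cells with C1qb, Apoe was present in 54.3% in vascular tissue and 54.7% in spleen, and among those without C1qb in 3.94% and 1.52%. Apoe and H2-Aa were not confined to macrophages. Siglech cells held Apoe in 14.5% in vascular tissue and 15.7% in spleen, and H2-Aa in 97.0% and 94.8%. Cells with at least 2 Cd79a UMIs and no Cd3e held Apoe in 48.8% and 42.5%, and H2-Aa in 95.5% and 99.2%. Whether the 60 vascular and 24 spleen carriers with Apoe and H2-Aa alone held RNA of such cells was not tested.

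Carriers were deeper than other Cd3e cells and were called doublets more often. Their median depth was 4835, 5289 and 5586 UMIs in vascular libraries and 8223, 6409 and 6467 UMIs in spleen libraries, against 4227, 4652 and 4874 UMIs in other vascular Cd3e cells and 5655, 5168 and 5005 UMIs in other splenic ones. The ratio was 1.14 on average in vascular tissue and 1.33 in spleen, and carriers were deeper in each of the 6 libraries. Doublets, droplets with the RNA of more than 1 cell, were called from the share of simulated doublets among a cell's neighbours. The calls took 13.7%, 7.39% and 10.2% of vascular carriers and 6.06%, 9.55% and 19.2% of spleen carriers, against 5.07%, 2.60% and 3.65% of other vascular Cd3e cells and 1.53%, 6.72% and 6.53% of other splenic ones. Calls varied with the number of the 6 genes. In vascular libraries 15.3%, 9.17% and 8.53% of carriers with exactly 2 were called, against 3.70%, 3.33% and 6.45% of those with 5. Vascular carriers with all 6 were called at 2.63%, 0% and 3.57%. In spleen libraries the shares were 15.6%, 16.1% and 22.5% with exactly 2 and 0%, 8.33% and 16.0% with 5. With called doublets removed, carriers made up 5.58% ± 0.305 of Cd3e cells in vascular tissue and 3.87% ± 0.462 in spleen. A carrier that was not called may still be a doublet. Simulated doublets joined random cells of 1 library. Cd3e-negative cells with at least 2 of the 6 genes numbered 16, 4 and 4 in vascular libraries and 8, 58 and 63 in spleen libraries. Few simulated doublets could thus join a T cell with such a cell, and the calls could miss such pairs. The part of doublets in the results below was not tested.

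**Figure D3:**
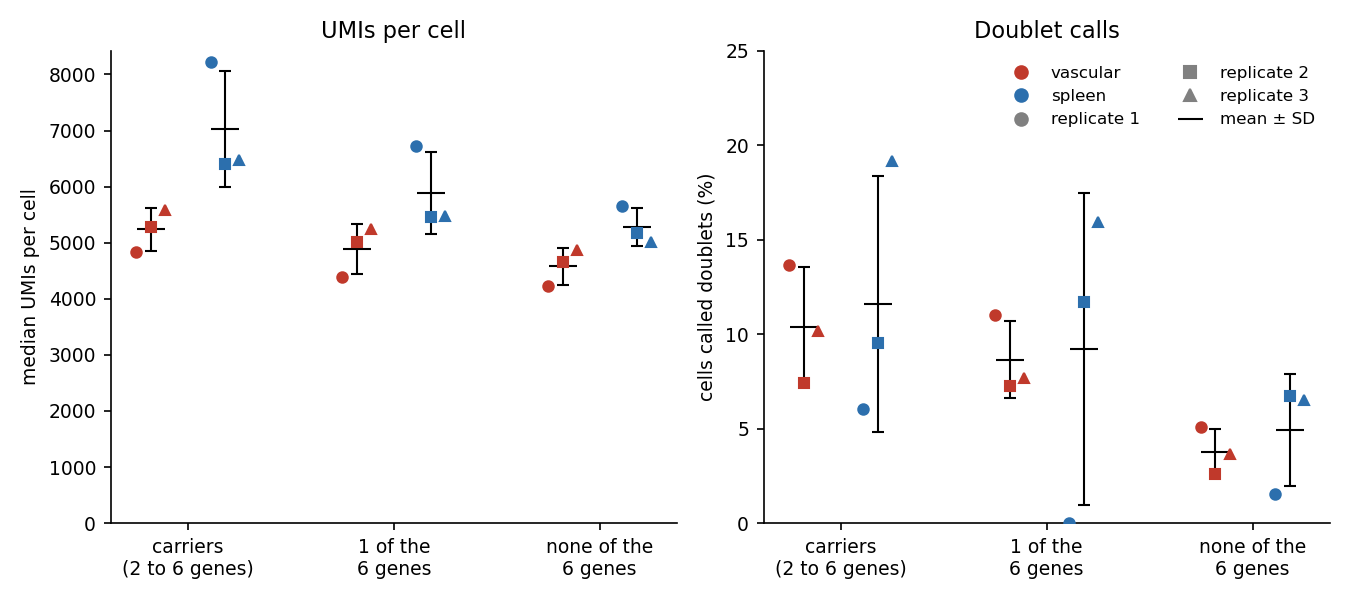
Median UMIs per cell (left axis) and cells called doublets (%, right axis) for carriers, Cd3e cells with 1 of the 6 genes and Cd3e cells with none, in the 3 vascular (red) and 3 spleen (blue) libraries, with marker shape for the replicate number and bars for mean ± SD. Carriers lie above the cells with none of the genes in each library in both panels.

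UMIs were summed over the carriers of each library and tested between tissues with edgeR's quasi-likelihood test, with Benjamini-Hochberg adjustment over the 9119 genes tested. Levels below are CPM on these sums with TMM scaling, log2 differences are vascular minus spleen with their SE, and adjusted p-values are from this test. In carriers, 2088 genes differed between tissues (22.9%), 1193 higher (13.1%) and 895 lower (9.81%) in vascular tissue, and the median log2 difference over all genes tested was -0.02. The libraries of one tissue all lay on one side of those of the other for 3530 of the genes (38.7%). A summed level cannot tell fewer cells with a gene from less of its RNA per cell.

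The red pulp macrophage programme was carried in spleen and was nearly absent from vascular carriers. Of 13 listed genes, 11 could be tested, 10 were lower in vascular carriers and none higher, with a median log2 difference of -5.15. Hmox1, the enzyme that degrades haem, stood at 15.9, 16.4 and 15.1 CPM in vascular carriers and at 207, 216 and 266 CPM in spleen carriers. The groups lay far apart, and Hmox1 differed by -3.87 ± 0.15 (adjusted p = 3.6e-09, n = 3 libraries each). It had a UMI in 89 of 1072 vascular carriers and 477 of 799 spleen carriers. Vcam1, an adhesion molecule that red pulp macrophages carry, had 3.12, 2.34 and 3.46 CPM in vascular carriers and 51.9, 57.3 and 60.2 CPM in spleen carriers, a difference of -4.21 ± 0.21 (adjusted p = 2.9e-08). Slc40a1, which encodes the iron exporter ferroportin, had 0 UMIs in all 3 vascular libraries and 54.9, 58.1 and 73.4 CPM in spleen carriers. Against a floor of 3 UMIs over the vascular carriers, Slc40a1 was at least 148-fold lower in vascular carriers. None of the 1072 vascular carriers had a UMI of it, which allows a share of up to 0.280%.

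Other members of this list behaved likewise. Spic, the transcription factor red pulp macrophages need, had 2 UMIs in vascular and 197 in spleen carriers, a spleen over vascular ratio of 104 (95% counting interval 28.5 to 867). Fcna, which encodes ficolin A, had 1 UMI in vascular carriers and 76.4, 89.7 and 81.6 CPM in spleen carriers, a spleen over vascular ratio of 577 (95% counting interval 103 to 22836). Cd5l, a secreted macrophage protein, had 0 UMIs in vascular carriers and 51.0, 41.5 and 53.4 CPM in spleen carriers, at least 111-fold lower in vascular carriers. Axl, a receptor for dying cells, differed least among those called, at 10.4, 12.9 and 12.1 CPM in vascular carriers and 24.5, 26.9 and 27.2 CPM in spleen carriers (-1.18 ± 0.19, adjusted p = 0.00052). Il18bp was the tested member that did not pass (-0.46 ± 0.27, adjusted p = 0.25). Mertk with 0 vascular and 21 spleen UMIs and Cd163 with 1 and 26 were below the filter on low counts. The 13 genes together reached 44.4, 43.4 and 45.3 CPM (without TMM scaling) in vascular carriers and 586, 544 and 650 CPM in spleen carriers, while other Cd3e cells held 19.7 to 20.6 CPM in vascular tissue and 13.3 to 19.1 CPM in spleen. Of the marginal zone list, Timd4, a receptor for dying cells, was tested and had 0 vascular and 55 spleen UMIs, at least 19.4-fold lower in vascular carriers.

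Iron handling moved with the red pulp genes, with which its list shares Hmox1, Slc40a1, Cd163 and Trf. Of its 8 tested genes, 7 were lower and 1 higher in vascular carriers. The lower ones outside the red pulp list were Blvrb, biliverdin reductase B (-2.48 ± 0.18, adjusted p = 6.6e-07), Hpgd (-3.75 ± 0.28, adjusted p = 7.3e-07), Slc11a1, a metal transporter of phagosomes (-1.10 ± 0.30, adjusted p = 0.019), and Ftl1, the ferritin light chain. Ftl1 had 1254, 1396 and 1250 CPM in vascular carriers and 1901, 1982 and 2128 CPM in spleen carriers (-0.62 ± 0.10, adjusted p = 0.00044), whereas Fth1, the heavy chain, was higher in vascular carriers with 4160, 3409 and 3424 CPM, against 2287, 2405 and 2488 CPM in spleen carriers (0.61 ± 0.10, adjusted p = 0.00076). In other Cd3e cells Fth1 was higher in vascular tissue too (1.03, adjusted p = 0.00022), and Ftl1 did not pass (-0.05, adjusted p = 0.61).

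In spleen, Hmox1 was higher the larger the number of the 6 genes that cells held. Its level (without TMM scaling) was 5.44, 6.82, 7.60, 24.6 and 19.2 CPM in vascular cells with 0, 1, 2, 3 and 4 to 6 of the genes, and 7.14, 51.3, 133, 196 and 342 CPM in spleen cells with the same numbers. Its level in spleen cells with 1 gene, outside the rule, was already several times that of cells with none. This order is given as a description, since the genes counted are carried by the same cells.

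General macrophage genes were also mostly lower in vascular carriers, by smaller amounts. Of 15 listed genes 14 were tested, 9 were lower and 1 higher, with a median of -1.11. Csf1r had 4.51, 12.9 and 2.59 CPM in vascular carriers and 33.3, 35.2 and 45.6 CPM in spleen carriers (-2.68 ± 0.34, adjusted p = 9.3e-05). Cd68, a lysosomal membrane protein, had 18.0, 20.5 and 20.7 CPM in vascular carriers and 42.1, 47.4 and 58.1 CPM in spleen carriers (-1.36 ± 0.17, adjusted p = 7.3e-05). Spi1, which encodes PU.1, had 18.4, 21.6 and 16.0 CPM in vascular carriers and 39.2, 52.1 and 45.9 CPM in spleen carriers (-1.33 ± 0.17, adjusted p = 0.0001), but its difference was 0.47 where at least 2 C1q genes were required. The libraries of these 3 genes did not overlap. The one higher gene was Ms4a7, a membrane protein of macrophages, with 28.8, 69.6 and 38.5 CPM in vascular carriers and 9.80, 7.11 and 11.6 CPM in spleen carriers (2.2 ± 0.33, adjusted p = 0.00034). In vascular library 2, single carriers held 50 of the 119 Ms4a7 UMIs, 16 of 22 Csf1r UMIs, 13 of 35 Cd68 UMIs and 16 of 37 Spi1 UMIs. These counts depend on how carriers are chosen: where at least 2 C1q genes were required, 4 of 13 tested pan-macrophage genes were lower and 2 higher, while 9 of 10 red pulp genes were still lower. Of all 6785 genes tested under that rule, 499 were lower and 816 higher in vascular carriers.

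**Figure D4:**
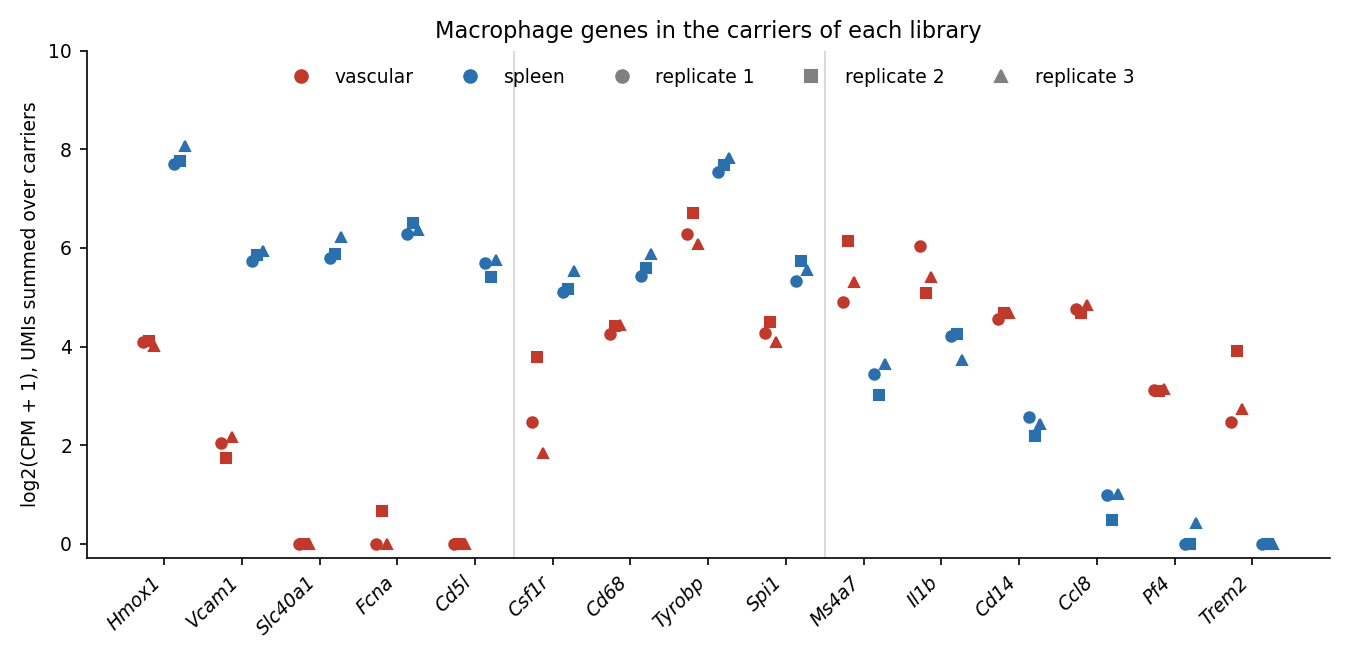
Level of 15 macrophage genes in the summed carriers of each library, as log2(CPM + 1) on the vertical axis, for the 3 vascular (red) and 3 spleen (blue) libraries, with marker shape for the replicate number. The 5 red pulp genes on the left lie higher in spleen, Csf1r, Cd68, Tyrobp and Spi1 in the middle lie higher in spleen by less, and the 6 genes on the right lie higher in vascular tissue.

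Some genes of the monocyte and arterial macrophage lists were higher in vascular carriers. Of 7 tested genes of the inflammatory monocyte list 6 were higher and none lower in vascular carriers, and of 5 tested arterial macrophage genes 2 were higher and 2 lower. Ccl8, a chemokine of tissue macrophages, had 26.0, 24.6 and 27.7 CPM in vascular carriers and 0.980, 0.395 and 1.02 CPM in spleen carriers (4.99 ± 0.34, adjusted p = 4.1e-07). Pf4, a chemokine of platelets that resident macrophages also express, had 53 UMIs in vascular and 1 in spleen carriers, a vascular over spleen ratio of 50.1 (95% counting interval 8.60 to 2014). The platelet genes Ppbp, Itga2b, Gp9 and Gp1bb were below the filter, with 0 to 3 UMIs in vascular carriers. The 2 lower members were Mrc1, the mannose receptor (-3.29 ± 0.43, adjusted p = 0.00011), and Clec4n, a lectin (-3.40 ± 0.25, adjusted p = 7.8e-07). Of 5 tested genes of lipid-laden and scar macrophages 2 were higher and 1 lower. Trem2, a lipid-sensing receptor of that list, had 4.51, 14.0 and 5.62 CPM in vascular carriers and 0 UMIs in spleen carriers, at least 15.7-fold higher in vascular carriers.

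Cd14, the receptor that presents bacterial lipopolysaccharide, had 22.5, 24.6 and 24.6 CPM in vascular carriers and 4.90, 3.55 and 4.42 CPM in spleen carriers (2.5 ± 0.24, adjusted p = 8.7e-06). Il1b, an inflammatory cytokine, had 64.8, 32.7 and 41.5 CPM in vascular carriers and 17.6, 18.2 and 12.2 CPM in spleen carriers (1.60 ± 0.26, adjusted p = 0.00059). Both were below 1 CPM in other Cd3e cells of either tissue. The other 5 higher genes of the monocyte list, Ccr2 (2.82 ± 0.17, adjusted p = 1.7e-07), Ly6c2, Plac8, S100a4 and Ifitm3, were also higher in vascular tissue in other Cd3e cells. Of the 7 genes, 2 in vascular tissue and 4 in spleen stood at least 2-fold above other Cd3e cells in all 3 libraries, and for 3 of the 7 the vascular minus spleen difference tested lower in carriers than in other Cd3e cells, and for none higher. The smallest difference of the list was that of Ms4a6c, with 49.6, 50.3 and 57.0 CPM in vascular and 52.9, 51.7 and 43.9 CPM in spleen carriers (adjusted p = 0.66). Of 16 lysosome genes 1 was higher, 1 lower and 14 did not pass, and of 11 tested phagocytosis receptors 3 were higher and 5 lower.

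The direction of MHC class II genes depended on which carriers were counted. Of 7 tested genes 6 were lower, led by Ciita, the master regulator of the class (-1.89 ± 0.42, adjusted p = 0.006), and none higher. Cd74, the invariant chain, had 1054, 1043 and 980 CPM in vascular carriers and 1101, 1975 and 1505 CPM in spleen carriers (-0.58 ± 0.16, adjusted p = 0.021). The 5% of carriers with the most Cd74 held 50.4% of its UMIs in vascular tissue, where they were 54 cells, and 85.8% in spleen, where they were 40. In carriers under 20 H2-Aa UMIs the order was the other way, with 712 ± 112 CPM in vascular and 269 ± 38.8 CPM in spleen carriers. In the few at or above 20, Cd74 reached 20280 ± 1146 CPM in vascular and 22514 ± 1722 CPM in spleen carriers. With at least 3 of the 6 genes required, 3 of 6 tested class II genes were higher and 1 lower in vascular carriers, so no direction is given for this group. Of all 8094 genes tested under that rule, 914 were higher and 574 lower.

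Haemoglobin RNA was carried in spleen. Hbb-bs, an adult beta globin, had 0.347, 0 and 0 CPM in vascular carriers and 113, 1485 and 695 CPM in spleen carriers. It had a UMI in 1 of 1072 vascular and 154 of 799 spleen carriers. Single cells held most of it, 3110 of 3760 UMIs in spleen library 2 and 1626 of 2044 UMIs in spleen library 3. Hbb-bt had 0 vascular and 2566 spleen UMIs and Hba-a1 0 and 732, at least 906-fold and 258-fold lower in vascular carriers. In spleen libraries 2 and 3 single cells held 1150 of 1447 and 868 of 1067 Hbb-bt UMIs. For Hba-a1 they held 389 of 466 and 161 of 240, so these bounds rest largely on few cells. All 4 tested erythroid genes were lower in vascular carriers. The other Cd3e cells of vascular library 2 held 240 CPM of Hbb-bs, whereas none of its 257 carriers had a UMI of it, which allows a share of up to 1.17%.

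Summed levels of the markers of further cell types were low in carriers, apart from the list of plasmacytoid dendritic cells. The B cell list summed to 4.82 to 8.10 CPM in vascular and 7.48 to 11.4 CPM in spleen carriers, with Cd79a at 0 by the rule and Ms4a1 and Pax5 at 0 in vascular carriers. The vessel wall list reached 27.2 to 45.7 CPM in vascular and 36.5 to 50.3 CPM in spleen carriers, mostly from Pecam1, which T cells express too. The list of conventional dendritic cells summed to 19.8 to 24.9 CPM in vascular and 25.1 to 48.3 CPM in spleen carriers, and the neutrophil list to 8.62 to 16.9 CPM and 2.72 to 34.2 CPM. Though low, the dendritic genes exceeded other Cd3e cells in spleen. Over carriers and other Cd3e cells together 7 of them passed the filter on low counts. In spleen 6 of these, and in vascular tissue 1, stood at least 2-fold above other Cd3e cells in all 3 libraries. Over all 10990 genes 3.64% did so in spleen and 1.87% in vascular tissue. The rule made this contrast of carriers with other Cd3e cells too, so it is a description. The NK cell list reached 16.4 to 31.3 CPM in vascular and 19.0 to 136 CPM in spleen carriers, spleen library 3 lying highest. The list of plasmacytoid dendritic cells, Siglech being 0 by the rule, held 303 to 405 CPM in vascular and 244 to 334 CPM in spleen carriers, against 247 to 336 CPM in other vascular Cd3e cells and 220 to 261 CPM in other splenic ones. Of 2 tested genes of conventional dendritic cells, Itgax, an integrin, was lower in vascular carriers (-3.04 ± 0.43, adjusted p = 0.00019). Of the neutrophil list Mmp9 was tested and was higher in vascular carriers (2.59 ± 0.47, adjusted p = 0.0014), as in other Cd3e cells, whereas Retnlg, Cxcr2 and Ly6g were at 0. Their part in the differences between carriers was not tested.

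The T cell side of the carriers also differed by tissue. Of 13 tested T lineage genes 5 were higher and 1 lower in vascular carriers, and the core genes Cd3d (-0.03 ± 0.10, adjusted p = 0.87) and Cd4 (0.22 ± 0.11, adjusted p = 0.17) did not pass. Of 14 genes of naive and recirculating T cells 12 were lower and 1 higher. Dapl1 (-2.44 ± 0.34, adjusted p = 0.0002) and Igfbp4 (-2.36 ± 0.25, adjusted p = 1.9e-05), both markers of naive T cells in mice, fell furthest, and Il7r, the interleukin 7 receptor, was the higher one (0.90 ± 0.16, adjusted p = 0.0011). Igfbp4 had 42.3, 91.8 and 114 CPM in vascular carriers and 402, 457 and 400 CPM in spleen carriers. Its vascular libraries spread widely, library 1 lying lowest, and did not overlap with spleen.

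All 13 genes of effector, memory and resident T cells were higher in vascular carriers, with a median of 1.43. Itga1, a collagen-binding integrin of resident T cells, had the largest difference (4.26 ± 0.61, adjusted p = 0.00023) and Crip1 the smallest (0.43 ± 0.14, adjusted p = 0.038). Cxcr6, a chemokine receptor of resident T cells, had 413, 394 and 265 CPM in vascular carriers and 14.7, 25.7 and 46.9 CPM in spleen carriers (3.49 ± 0.27, adjusted p = 1.2e-06). In other Cd3e cells, where 40.3% of 11846 genes differed between tissues, 12 of these 13 genes were higher and 13 of the 14 naive genes lower in vascular tissue.

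Most Th1, Th17 and Th2 genes were higher in vascular carriers, as they were in other vascular Cd3e cells, where 11 of 12, 7 of 8 and 5 of 5 tested genes of these lists were higher, while Tfh genes went both ways. Ifng, the cytokine of Th1 cells, had 306, 263 and 173 CPM in vascular carriers and 63.7, 46.6 and 33.0 CPM in spleen carriers (2.45 ± 0.23, adjusted p = 7.3e-06). Of 12 Th1 and cytotoxic genes 10 were higher, from Il12rb2, a receptor chain for interleukin 12 (3.31 ± 0.38, adjusted p = 4.1e-05), downwards, and Ccl4 and Eomes did not pass. Il17a, the cytokine of Th17 cells, had 52.7, 52.6 and 273 CPM in vascular carriers and 0 UMIs in spleen carriers, at least 275-fold higher in vascular carriers. It came from 41 cells, 1 of which, in vascular library 3, held 303 of 873 UMIs. Of 8 tested Th17 genes 7 were higher, and Il22 did not pass, with 75 of 86 spleen UMIs in 1 cell. All 5 tested Th2 genes were higher, with Areg, a growth factor also made by tissue regulatory T cells, at 298, 336 and 373 CPM in vascular carriers and 4.90, 19.0 and 14.3 CPM in spleen carriers (4.55 ± 0.23, adjusted p = 2.7e-08). Gata3, the Th2 transcription factor, differed least (0.76 ± 0.15, adjusted p = 0.002), and Il4, Il5 and Il13 were below the filter. Of 8 Tfh genes 3 were higher, led by Pdcd1, which encodes PD-1 (2.33 ± 0.14, adjusted p = 1.6e-07), and 2 lower, led by Cxcr5, the follicle homing receptor (-1.46 ± 0.39, adjusted p = 0.017).

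Most heat shock and immediate early genes were higher in vascular carriers. Hspa1a, a heat shock chaperone, had 1748, 1603 and 1592 CPM in vascular carriers and 18.6, 9.08 and 4.08 CPM in spleen carriers (7.56 ± 0.28, adjusted p = 3.6e-09), and 9 of 10 heat shock genes and 11 of 13 immediate early genes were higher. In other Cd3e cells Hspa1a differed by 7.76 ± 0.14. Crem, Cdkn1a, Ell2 and Ern1 were likewise higher in vascular carriers, by 4.21 ± 0.20, 4.13 ± 0.35, 4.33 ± 0.32 and 3.83 ± 0.39 on the log2 scale, as was Ccr8, a chemokine receptor of Th2 and regulatory T cells (3.87 ± 0.27), all with adjusted p of 1.2e-05 or less. On the other side, Slpi, a protease inhibitor of myeloid and epithelial cells, had 1.04, 3.51 and 3.46 CPM in vascular carriers and 99.0, 133 and 122 CPM in spleen carriers (-5.56 ± 0.26, adjusted p = 1.4e-08). Hebp1, a haem-binding protein, was lower by a log2 difference of -5.69 ± 0.38 (adjusted p = 3.6e-07), and Dtx1, a ubiquitin ligase of the Notch pathway, by one of -2.75 ± 0.31 (adjusted p = 3e-05). Of the 10 interferon response genes 4 were higher and 1 lower, and of the 8 cycling genes 1, Top2a, was higher.

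Whether a tissue difference was itself different in carriers was tested as the interaction of tissue with cell class, carriers against other Cd3e cells, with the library as a block. The difference of the log2 differences passed for 288 of 10990 genes (2.62%), 65 higher (0.591%) and 223 lower (2.03%). Because the other Cd3e cells were required to hold none of the 6 genes, genes that travel with them were partly fixed by the rule. The T cell genes are therefore the ones read here, and other genes are given with that limit.

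For several genes of regulatory T cells (Treg), the tissue difference was larger in carriers than in other Cd3e cells. Of the 11 listed genes, 7 were higher and none lower in vascular carriers, and in the interaction 4 passed higher (Foxp3, Il2ra, Klrg1 and Tnfrsf18) and 1 lower (Nrp1). Foxp3, the transcription factor that defines the subset, had 44.4, 78.4 and 86.6 CPM in vascular carriers and 38.4, 32.7 and 30.6 CPM in spleen carriers (scaled over carriers and other cells together). In other Cd3e cells it had 46.1, 56.5 and 57.7 CPM in vascular tissue and 40.8, 53.3 and 48.7 CPM in spleen. Carriers thus lay above the other cells in vascular libraries 2 and 3 and below them in spleen libraries 2 and 3, while in library 1 of each tissue carriers and other cells were close. The tissue difference was 1.06 ± 0.23 in carriers (adjusted p = 0.0047) and 0.15 in other Cd3e cells (adjusted p = 0.35), and the difference between these was 0.92 ± 0.16 (edgeR interaction, adjusted p = 0.00091). Over the 13 alternatives tried it ran from 0.77 to 1.30, with adjusted p of 0.049 or less in each.

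Il2ra, the high-affinity interleukin 2 receptor chain CD25, had 80.5, 81.8 and 100 CPM in vascular carriers and 24.9, 15.8 and 22.6 CPM in spleen carriers, against 64.5, 60.6 and 60.7 CPM in other vascular Cd3e cells and 27.2, 33.0 and 31.4 CPM in other splenic ones. It lay above the other cells in all 3 vascular libraries and below them in all 3 spleen libraries, with an interaction of 1.11 ± 0.17 (adjusted p = 0.00013). Klrg1, a receptor of tissue Treg and of effector cells, had 67.1, 96.7 and 61.9 CPM in vascular carriers and 15.3, 8.09 and 7.32 CPM in spleen carriers, with an interaction of 0.97 ± 0.23 (adjusted p = 0.017). Without spleen library 2 or 3 its adjusted p was 0.0685 and 0.319. Tnfrsf18, which encodes GITR, had a smaller interaction of 0.46 ± 0.09 (adjusted p = 0.0021), whose adjusted p was 0.0617 without spleen library 3. Nrp1, a coreceptor of thymic Treg that macrophages also express, went the other way with -0.74 ± 0.18 (adjusted p = 0.022), its spleen carriers holding 50.8, 68.2 and 31.3 CPM against 24.0, 30.7 and 26.3 CPM in other splenic Cd3e cells. Its adjusted p was 0.235 without vascular library 1, 0.0715 without spleen library 1, 0.397 without spleen library 2 and 0.165 where at least 2 C1q genes were required. Ctla4, Tnfrsf4 and Tigit were higher in vascular carriers but did not pass the interaction.

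**Figure D5:**
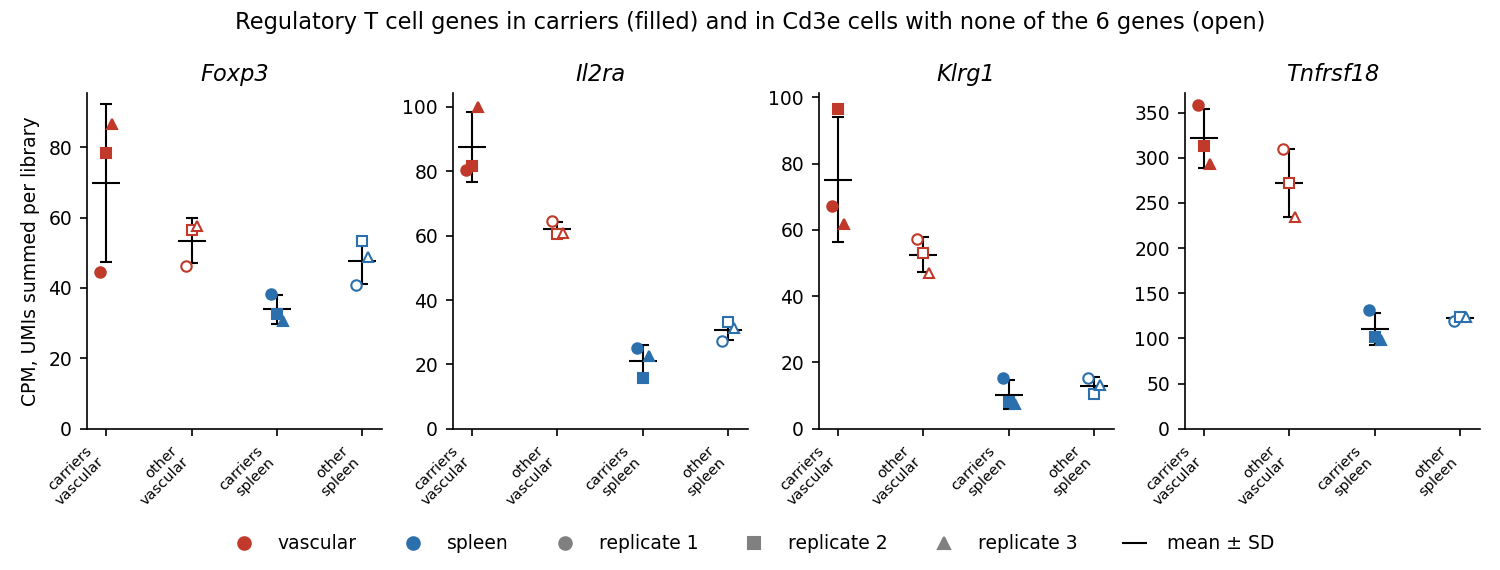
Level (CPM of UMIs summed per library, vertical axes) of Foxp3, Il2ra, Klrg1 and Tnfrsf18 in carriers (filled) and in Cd3e cells with none of the 6 genes (open), vascular (red) and spleen (blue), with marker shape for the replicate number and bars for mean ± SD. Il2ra of carriers lies above the other cells in all 3 vascular libraries and below them in all 3 spleen libraries, and Foxp3 does so in libraries 2 and 3 of each tissue.

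The Treg genes were set beside depth and doublet calls. Foxp3 had a UMI in 15.1% ± 4.33 of vascular carriers and 13.3% ± 5.07 of spleen carriers, against 9.01% ± 1.13 and 9.75% ± 0.510 of the other Cd3e cells of vascular tissue and spleen. Thinned to 1000 UMIs, the shares were 5.26% ± 2.28 and 2.54% ± 0.570 of vascular and spleen carriers, against 3.51% ± 0.334 and 3.68% ± 0.413 of the others. Foxp3 stood at 64.3 ± 35.1 CPM in called doublets and 71.8 ± 22.4 CPM in the remaining carriers in vascular tissue, and at 100 ± 119 and 28.8 ± 7.10 CPM in spleen. With called doublets removed the interactions of Foxp3, Il2ra and Klrg1 were 1.05, 1.45 and 1.22 and passed. Since the calls could miss pairs of a T cell and a macrophage, the part of such pairs was not tested by this. In carriers under 1.5 times the median UMIs of the other Cd3e cells, an alternative chosen after the data were seen, that of Foxp3 was 0.79 (adjusted p = 0.049). The interactions of Il2ra, Klrg1, Tnfrsf18 and Nrp1 did not pass there, with adjusted p of 0.353, 0.799, 0.305 and 0.317. By number of the 6 genes, Foxp3 averaged 52.5, 64.4, 70.2, 71.1 and 72.1 CPM in vascular cells with 0, 1, 2, 3 and 4 to 6 of them, and 46.6, 37.6, 44.2, 29.2 and 28.1 CPM in spleen cells with the same numbers. The SDs at 2, 3 and 4 to 6 genes were 30.5, 22.6 and 18.2 CPM in vascular cells and 18.9, 11.6 and 11.6 CPM in spleen cells. Vascular library 1 ran 45.3, 60.6, 36.6, 45.7 and 52.7 CPM, so a steady rise with the number of genes was not shown.

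Further genes, of T cells and of other cells, passed the interaction. Of the naive list, Igfbp4 (-0.59 ± 0.08, adjusted p = 1.8e-05) and Dapl1 (-0.71 ± 0.14, adjusted p = 0.0034) had larger falls in carriers than in other Cd3e cells, that of Dapl1 with an adjusted p of 0.163 without vascular library 3 and 0.0518 at lower depth. Igfbp4 had 42.0, 89.8 and 110 CPM in vascular carriers and 393, 446 and 391 CPM in spleen carriers, against 110, 191 and 285 CPM in other vascular Cd3e cells and 650, 722 and 629 CPM in other splenic ones. It was thus lower in carriers in all 6 libraries, by a larger factor in vascular tissue. Of the effector, memory and resident list, 2 genes passed higher and 2 lower. The higher ones were Cd69, an early activation and retention marker (0.44 ± 0.06, adjusted p = 2.7e-05), and Itgae, the integrin CD103 (1.42 ± 0.38, adjusted p = 0.038). In the Th1 and cytotoxic list 3 genes passed lower and in the Th17 list 1, with none higher in either. Itgae rests on 18 UMIs in spleen carriers and did not pass in 7 of 13 alternatives, with adjusted p of 0.163 without vascular library 3, 0.0905, 0.119 and 0.105 without spleen libraries 1, 2 and 3, 0.393 with at least 3 of the 6 genes, 0.0903 with at least 2 C1q genes and 0.244 at lower depth. Of the T lineage genes, Cd5, a brake on receptor signalling, passed higher (0.33 ± 0.07, adjusted p = 0.0063). It did not pass without vascular library 3 (0.0689) or spleen library 3 (0.0640), with called doublets removed (0.0826), with at least 3 genes (0.353) or with at least 2 C1q genes (0.337), the values being adjusted p. Cxcl2, a chemokine that attracts neutrophils and is made by myeloid cells, stood at 191, 103 and 161 CPM in vascular carriers and 1.92, 4.24 and 8.65 CPM in spleen carriers, against 60.6, 52.2 and 42.3 CPM in other vascular and 6.13, 7.60 and 5.12 CPM in other splenic Cd3e cells (1.66 ± 0.34, adjusted p = 0.0046). Without spleen library 2 its adjusted p was 0.199. In vascular cells with none of the 6 genes Cxcl2 averaged 50.8 CPM (without TMM scaling), and in those with 4 to 6 of them 243 CPM. The rule for the other Cd3e cells may thus partly fix its interaction. Rrad, a small GTPase, had an interaction of 0.78 ± 0.13 (adjusted p = 0.00026). Vcam1 (-5.43 ± 0.38, adjusted p = 4.6e-10) and Slpi (-4.18 ± 0.29, adjusted p = 4.2e-10) passed lower, which the rule for the other Cd3e cells may partly fix.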

How the data were processed

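Single-cell RNA of sorted CD4+ T cells was measured by droplet sequencing (10x 5' chemistry, about 10000 cells loaded and 6000 targeted per library, per the labels' protocols). The authors deposited a matrix of raw UMI counts per gene and barcode for each of the 6 libraries. The submitters' processing notes name FastQC 0.11.8, Cell Ranger 2.2.0, STAR 2.5.1b, Seurat and the build mm10. Depth was 2312 to 9581 barcodes a library. Barcodes were kept from 300 genes upward where no more than 10% of UMIs were mitochondrial.

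The members, gene lists and tests were chosen with earlier results of these data known. UMI counts were summed per library and cell class and tested with edgeR 4.0.16 (quasi-likelihood, TMM scaling, filterByExpr, Benjamini-Hochberg adjustment, threshold 0.05), after a test on simulated data. The interaction fit kept the library as a block. DESeq2 1.42.0 with its Wald test was an alternative. Shares were compared with an exact permutation test (scipy 1.17.1). Doublets were simulated (2 per cell), each cell was scored by how many lay among its neighbours, and the top 0.8% per 1000 barcodes were called.

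Named genes were, among those past the threshold with no overlap of the tissues and at least 50 CPM in the higher one, the 10 largest rises and 10 largest falls between tissues and the 5 and 5 of the interaction, and from each list those with the largest and smallest differences. Further genes of the lists were named after their values were seen. Replicates of a tissue differed by more than sampling noise. Same-numbered vascular and spleen libraries did not deviate together in carriers, and nothing in the labels pairs them, so the numbers were not taken to pair them. Alternatives were other scalings, no filter, stricter rules for carriers, doublets removed and each library left out. A few genes of the lists are not reported here by name.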

Additional observations from a re-analysis of the deposited data

Results flagged for a closer look

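For 10 genes the tissue difference was itself different between carriers and other Cd3e cells (edgeR interaction, Benjamini-Hochberg adjusted p), which is what marked them for a closer look. In the higher direction the differences were 1.66 for Cxcl2, 1.11 for Il2ra, 0.97 for Klrg1, 0.92 for Foxp3 and 0.78 for Rrad on the log2 scale. Cxcl2 is made by myeloid cells, so the rule for the other Cd3e cells may partly fix its value. Foxp3 was higher in vascular carriers than in other vascular Cd3e cells in 2 of 3 libraries and lower in spleen carriers in 3 of 3. The Cxcl2 and Klrg1 values rest in part on spleen library 2, without which their adjusted p were 0.199 and 0.0685. Without spleen library 3 that of Klrg1 was 0.319. In carriers of lower depth the adjusted p of Cxcl2, Klrg1 and Il2ra were 0.773, 0.799 and 0.353. The part of depth was not tested further.

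Vcam1 and Slpi were lower by interactions of -5.43 and -4.18, and each passed in all 13 alternatives, but the rule for the other Cd3e cells may partly fix these values. The globin genes Hbb-bt, Hba-a1 and Hbb-bs passed with adjusted p of 2.7e-06, 1.9e-08 and 1.7e-08, with no UMI of the first 2 and 1 UMI of Hbb-bs in vascular carriers. These calls rest on vascular library 2, whose other Cd3e cells held most of the vascular globin RNA. Without it the adjusted p were 0.664 for Hbb-bt, 0.698 for Hba-a1 and 0.548 for Hbb-bs.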

How the results depend on the processing

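Of the 121 genes followed in the comparison of tissues, 96 kept their call and direction under every alternative run, and of 19 followed in the interaction 7 did. Requiring at least 2 C1q genes reversed the difference in the share of carriers to -1.07 points, and with at least 3 of the 6 genes its exact p was 0.2. The same C1q rule gave log2 differences of 0.47 for Spi1 and 1.11 for H2-DMb1. Genes of MHC class II reversed most: Cd74 gave 1.22, 1.98, 0.17 and 1.10, and H2-Ab1 1.5, 2.31, 0.28 and 1.43, with at least 3 genes required, at least 2 C1q genes required, called doublets removed and carriers of lower depth (chosen after the data were seen). H2-Oa gave 0.47 with at least 3 genes and 0.82 with the C1q rule.

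The count of genes that differed between tissues was 1315 with the C1q rule, 1333 by the DESeq2 Wald test and 1379 to 2336 with 1 library left out, lowest without spleen library 3. The interaction count was 467 without the filter (234 higher, 233 lower), 174 with at least 3 genes, 131 with the C1q rule, 165 in carriers of lower depth and 175 to 245 with 1 library left out. Leaving out 1 library moved the difference in shares between 1.56 and 2.02 points, with an exact p of 0.2, the smallest then possible. Fewer carriers entered the stricter rules, so part of their lower counts is set by construction; the causes of the others were not tested.

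With the replicate number as a block, 1940 genes differed between tissues and the difference in shares had a paired exact p of 0.25, the smallest possible. Same-numbered libraries correlated at -0.015, -0.072 and 0.059 in carriers, and 1 of 3 correlated best with its own number. In other Cd3e cells they correlated at 0.038, 0.032 and 0.147, and vascular libraries 1 and 3 correlated best with their own number. Such correlations cannot settle whether libraries share animals, and the block is not read as a paired design. Depth limits the rare genes: a gene with no UMI in the 99 carriers of spleen library 1 may still be in up to 3.03% of them.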

Other observations

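Cells without a Cd3e UMI that held at least 2 of the 6 genes numbered 24 in vascular tissue and 129 in spleen. Their pan-macrophage genes summed to 15518 ± 11827 CPM in vascular tissue and 7747 ± 853 CPM in spleen (SD, n = 3 libraries), above the 684 ± 129 CPM of vascular carriers and the 949 ± 102 CPM of spleen carriers. The T lineage genes of these Cd3e-negative cells summed to 3267 ± 1452 CPM in vascular tissue and 687 ± 469 CPM in spleen.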
